A study of Homo sapiens with 4 samples.

Results

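The extracellular matrix and integrin genes described here are 68 probes for 63 gene symbols, out of 47289 probes on each array, in NCCIT cells after knock-down of OCT4, NANOG or SOX2. The members were chosen by measured values: the study had listed them as higher or lower than mock after OCT4 or NANOG knock-down, and every symbol in the lists used of a collagen, laminin, integrin, fibronectin, fibrillin, fibulin, thrombospondin, tenascin, lysyl oxidase, metalloproteinase, syndecan, glypican or related name was taken, with COL1A1 and COL2A1 left out. Of the 68 probes, 47 were listed for OCT4 and in no NANOG list used here, 14 for both and 7 for NANOG alone. The lower NANOG list was used only as far as symbols beginning with LOC, and the SOX2 lists were not used here, so for probes later in the alphabet a place in the lower NANOG list is unknown, and genes listed only in the parts not used are missing from the 68.

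NCCIT is an established human embryonal carcinoma line, the malignant counterpart of pluripotent embryonic cells. Cells were transfected with esiRNA, a pool of short interfering RNAs made by enzymatic digestion, against OCT4, NANOG or SOX2 transcripts, and mock cells received the transfection reagent alone. All groups were harvested at day 2.5, and 300 ng of total RNA per sample went into labelling. Each of the 4 groups had 3 arrays, described as biological replicates. All groups share the line, the medium and the reagent, a mock without any esiRNA does not control for the presence of short RNA, and the labels do not say which NANOG pool was used.

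The extracellular matrix is the network of secreted proteins around cells. Fibrillar collagens give it tensile strength, collagen IV and laminins form the sheet-like basement membrane under epithelia, and lysyl oxidases cross-link collagen and elastin. Integrins are paired alpha and beta membrane receptors that bind matrix proteins such as fibronectin and connect them to the actin cytoskeleton, while metalloproteinases cleave matrix and are held in check by TIMP inhibitors.

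Several members lie side by side in the genome. By RefSeq order on GRCh38.p14, COL4A1 and COL4A2, COL4A6 and COL4A5, and COL3A1 and COL5A2 are neighbouring protein-coding genes, and the collagen IV pairs are transcribed away from each other from a shared upstream stretch. Those stretches are shown because both genes of each pair are members and were measured by separate probes. They come from the RefSeq promoter table for GRCh38.p14 and are given on the plus strand, with motif matches on either strand in capitals. The motifs searched were the GC box GGGCGG, the CCAAT box, the TATA box TATAAA and the octamer ATTTGCAT, which do not overlap here. Between the COL4A1 and COL4A2 starts lie 126 bases, at chr13:110307158-110307283, and the 250 bases before COL4A5, at chrX:108439588-108439837, lie within the 379 bases between it and the nearer of the 2 COL4A6 starts in the table.
COL4A1/COL4A2: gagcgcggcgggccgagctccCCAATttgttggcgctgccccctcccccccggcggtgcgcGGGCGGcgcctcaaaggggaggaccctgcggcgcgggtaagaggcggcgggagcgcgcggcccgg
COL4A6/COL4A5: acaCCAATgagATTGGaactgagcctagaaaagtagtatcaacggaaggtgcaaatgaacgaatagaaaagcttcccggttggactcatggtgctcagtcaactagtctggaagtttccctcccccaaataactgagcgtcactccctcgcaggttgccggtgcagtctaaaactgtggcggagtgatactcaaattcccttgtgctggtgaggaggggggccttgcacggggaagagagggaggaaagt
The first stretch held 1 match to GGGCGG and 1 to CCAAT, motifs that were found in 34.6% and 21.1% of the 35116 promoter windows of that length in the table. The second held 2 matches to CCAAT, found in 32% of windows of 250 bases, and none to GGGCGG, found in 42.6%. Neither held TATAAA, found in 5.87% of the shorter and 10.7% of the longer windows, or the octamer ATTTGCAT, found in 0.88% and 1.63%. These matches describe the letters of the windows only. Of 61 member genes with a current RefSeq symbol, 45 had an entry in the promoter table.

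The targeted genes were examined first. Values are log2 normalised intensities throughout, listed for replicates 1 to 3 of each group. POU5F1, which encodes OCT4, measured 9.39, 9.12 and 9.26 in mock, 5.32, 5.1 and 4.73 after OCT4 knock-down, 8.8, 8.78 and 8.93 after NANOG knock-down and 5, 4.82 and 4.97 after SOX2 knock-down. It was above the detection limit (a detection value over 0.99) on all mock and NANOG knock-down arrays, on 1 of 3 OCT4 knock-down arrays and on none of the SOX2 knock-down arrays. NANOG measured 8.42, 8.5 and 8.32 in mock, 4.83, 4.86 and 4.99 after OCT4 knock-down, 6.66, 6.49 and 6.57 after NANOG knock-down and 4.98, 4.84 and 4.58 after SOX2 knock-down. It was low after NANOG knock-down and below detection on every array after OCT4 or SOX2 knock-down. No probe could be named for SOX2 from the lists used, and the SOX2 label was not checked by its own gene. Silencing was also followed by quantitative PCR and immunoblots, not analysed here, and POU5F1 and NANOG do not distinguish the OCT4 and SOX2 knock-down arrays.

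**Figure D1:**
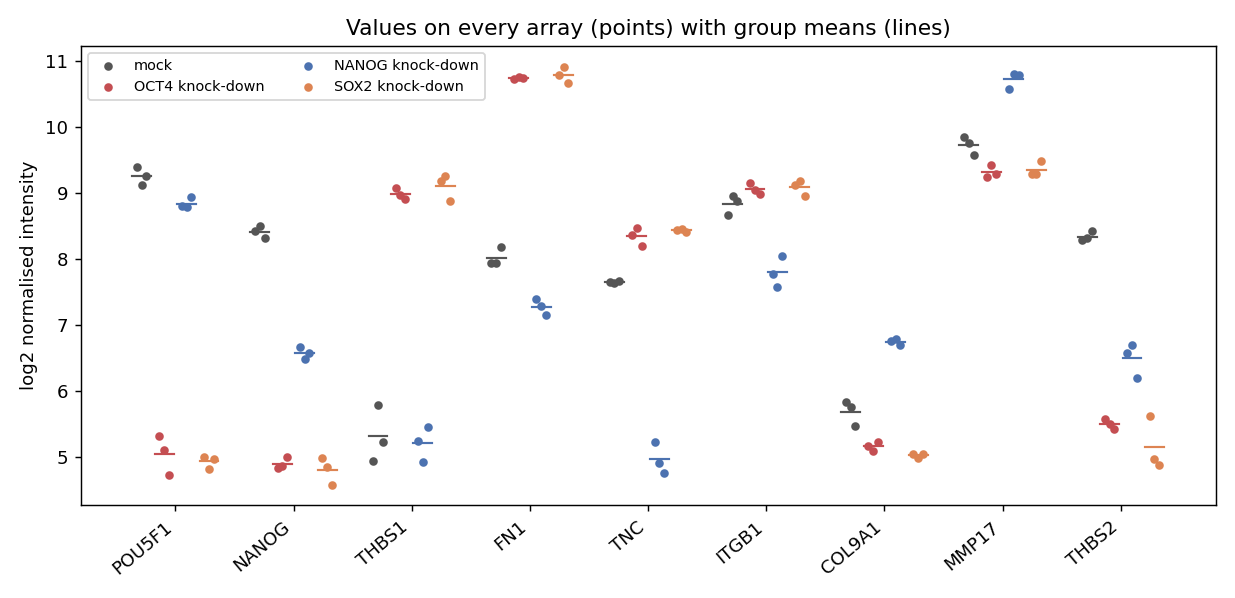
Log2 normalised intensity (vertical axis) of POU5F1, NANOG and 7 member probes on all 12 arrays, with group means as lines; each probe is to be read across its own groups, not against its neighbours. THBS1 and FN1 were high on all OCT4 and SOX2 knock-down arrays, and TNC was at 5.23 or less on all NANOG knock-down arrays.

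Of the other embryonal carcinoma markers that could be named, TDGF1, DPPA4, LIN28, UTF1 and DNMT3B were measured by 6 probes. With POU5F1 and NANOG, all 8 probes of this list were called lower after SOX2 than after NANOG knock-down (9.67% of all probes tested). Of 7 mesenchymal markers, 6 could be named. ACTA2, TAGLN, PDGFRA, PDGFRB and CDH11 were called higher after SOX2 than after NANOG knock-down (11.8% of all probes tested) and THY1 lower. With no NANOG knock-down array above detection, PDGFRA was at least 1.49-fold higher, a bound under the 1.5-fold that its fitted value passed. TAGLN, a smooth muscle actin-binding protein, measured 6.16, 5.99 and 6.14 in mock, 11.17, 11.57 and 11.45 after OCT4 knock-down, 6.68, 7.33 and 6.92 after NANOG knock-down and 11.37, 11.5 and 11.8 after SOX2 knock-down. TEK (endothelial), RUNX1 (blood) and NES (neural) were each called higher after SOX2 than after NANOG knock-down, and none of the trophoblast or endoderm markers could be named. CDH11, PDGFRA, PDGFRB, TEK and RUNX1 were below detection on every mock and NANOG knock-down array and above it on every OCT4 and SOX2 knock-down array. The markers could be named only where the study had listed them, so these are selected values too. Their part in the matrix results was not tested, and in bulk RNA more cells of a type and more RNA per cell cannot be told apart.

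Against mock, most members were higher after OCT4 and SOX2 knock-down and fewer after NANOG knock-down. The OCT4 and NANOG contrasts chose the members and the SOX2 contrast shares their mock arrays, so all are given as description without a test, and nothing is read from the counts. A probe was called where limma gave an adjusted p under 0.05 and the change was at least 1.5-fold, over the 12374 probes above detection on all 3 arrays of at least 1 group; all 68 members passed that filter. After OCT4 knock-down 51 members were called higher (14% of all probes tested) and 8 lower (10.8%). After NANOG knock-down 22 were called higher (5.19%) and 10 lower (4.34%), and after SOX2 knock-down 52 higher (13.5%) and 9 lower (10.5%). Some called members were below detection in 1 group and have only a bound. The bounds of ADAMTS18, GPC6, MMP10 and the FBLN1 probe for transcript variant D were under 1.5-fold after OCT4 and SOX2 knock-down. So were those of MMP9 and COL9A1 on GI_17978501-A after SOX2 knock-down, and of COL11A1 and COL8A1 after NANOG knock-down. That FBLN1 probe had no fold after NANOG knock-down. The median log2 difference over the 68 was 1.10 for OCT4, 0.16 for NANOG and 1.16 for SOX2, beside -0.03, 0.01 and -0.04 over all probes tested. With members below detection held at their bound and those below it in both groups left out, the medians were 0.98, 0.24 and 1.02. Among members listed for OCT4, the smallest differences from mock were COL6A1 (0.46), ITGB4BP (-0.48) and COL23A1 (0.56) after OCT4 knock-down, and probes just outside the lists are not named here. By calls, 32 members were higher after OCT4 and SOX2 knock-down without a call after NANOG knock-down (9.41% of all probes tested), 17 were higher after all knock-downs (2.51%) and 6 lower after all (2.26%).

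**Figure D2:**
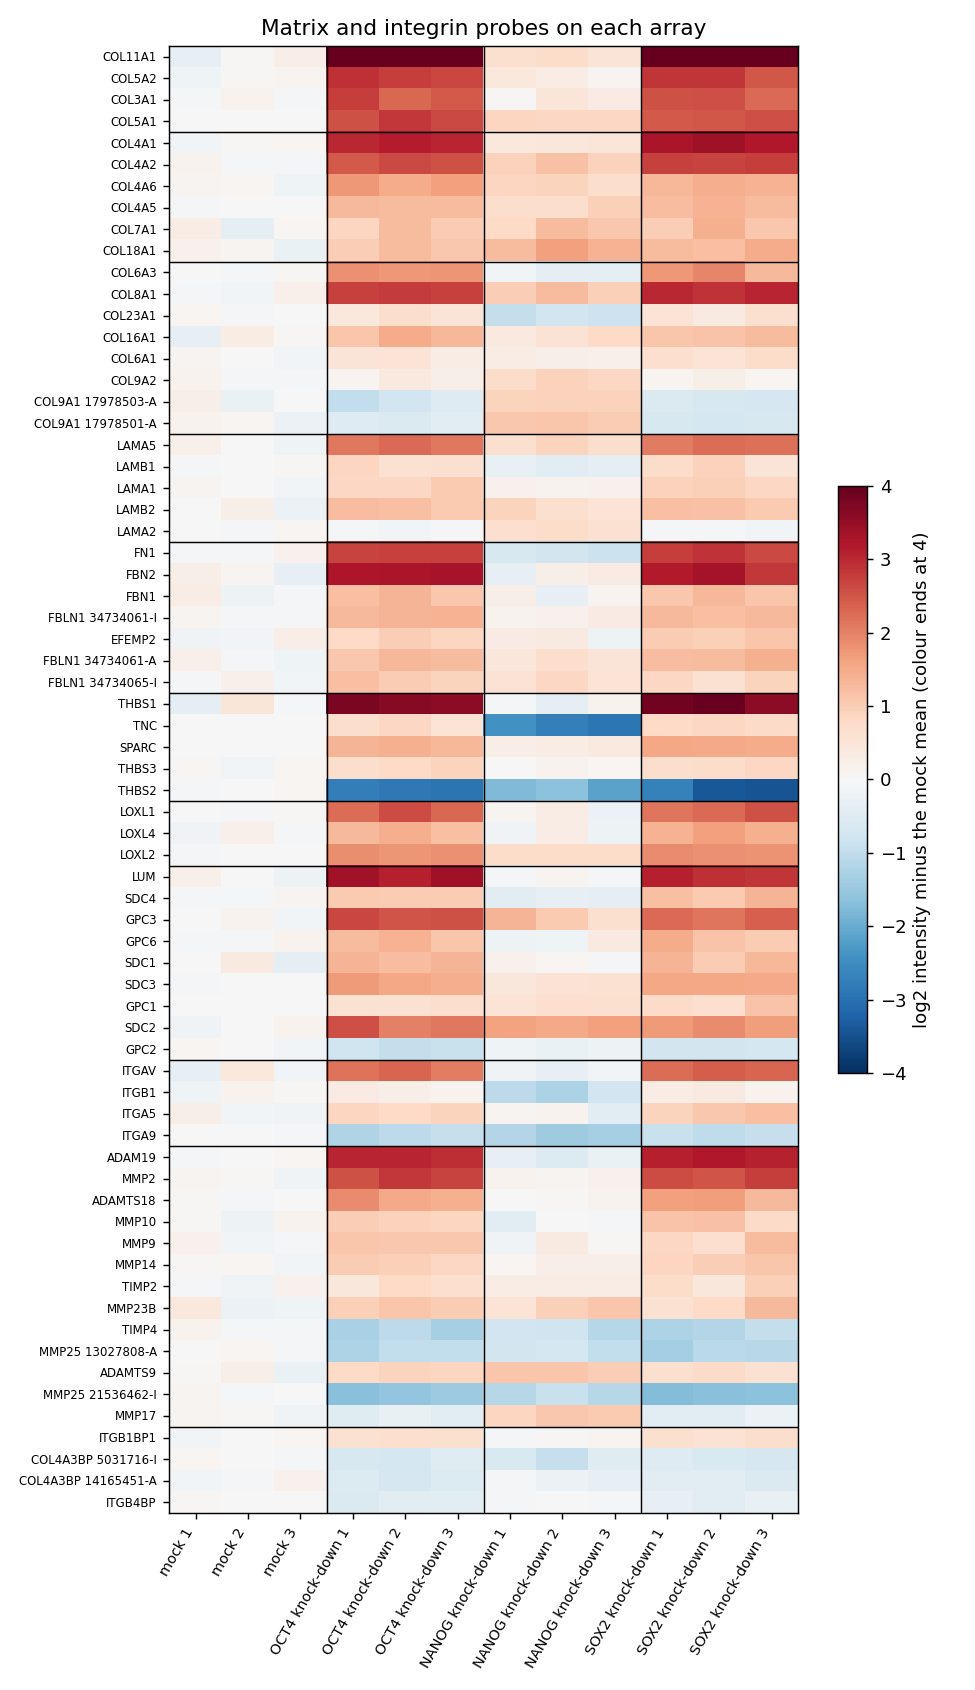
Log2 normalised intensity of the 68 member probes (rows, grouped by role) on the 12 arrays (columns), each minus the probe's mean over the mock arrays; the colour scale ends at 4 in each direction. The OCT4 and SOX2 knock-down columns resemble each other row by row, while the NANOG knock-down columns are paler, with TNC, FN1 and ITGB1 among the members below mock.

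The comparison of SOX2 with NANOG knock-down sets the SOX2 arrays against the NANOG arrays, while the OCT4 and mock arrays enter the normalisation and the estimate of the spread, and it was tested for the 47 probes listed for OCT4 and in no NANOG list used. Of the 47, 34 were called higher (11.8% of all probes tested) and 2 lower (9.67%), and 11 were not called. All 34 were among the 40 listed as higher after OCT4 knock-down and both of the others among the 7 listed as lower, so the directions are those by which the probes were listed for OCT4. Since no probe was called between OCT4 and SOX2 knock-down in the main fit, these counts are no independent evidence of a direction, and all probes tested are not a matched comparison for selected ones. The adjusted p given for single members below are limma's, adjusted over all probes tested, with a spread estimated from all 12 arrays. They do not account for how the probes were selected. Members that passed the detection filter only through OCT4 and SOX2 knock-down arrays, where they are high, are given without a p. Such members remain in the counts of calls above, which need the same adjusted p. The median log2 difference was 1.09, or 0.86 with members below detection at their bound, beside -0.05 over all probes tested. The differences of the 34 ran from 0.59 to 5.02. Absence from the NANOG lists was itself decided with the NANOG and mock arrays, which favours members near mock after NANOG knock-down. Counting every probe listed for OCT4, whatever its NANOG listing, 41 of 61 were called higher and 2 lower. Among the 27 of the 47 whose place in the lower NANOG list is known, 20 were called higher and 0 lower. Of the others, 5 (TNC, THBS2, TIMP4 and both MMP25 probes) were called lower than mock after NANOG knock-down and may stand in the part of that list not used; the remaining 42 held 33 called higher and 0 lower, and no p is given for the 5.

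**Figure D3:**
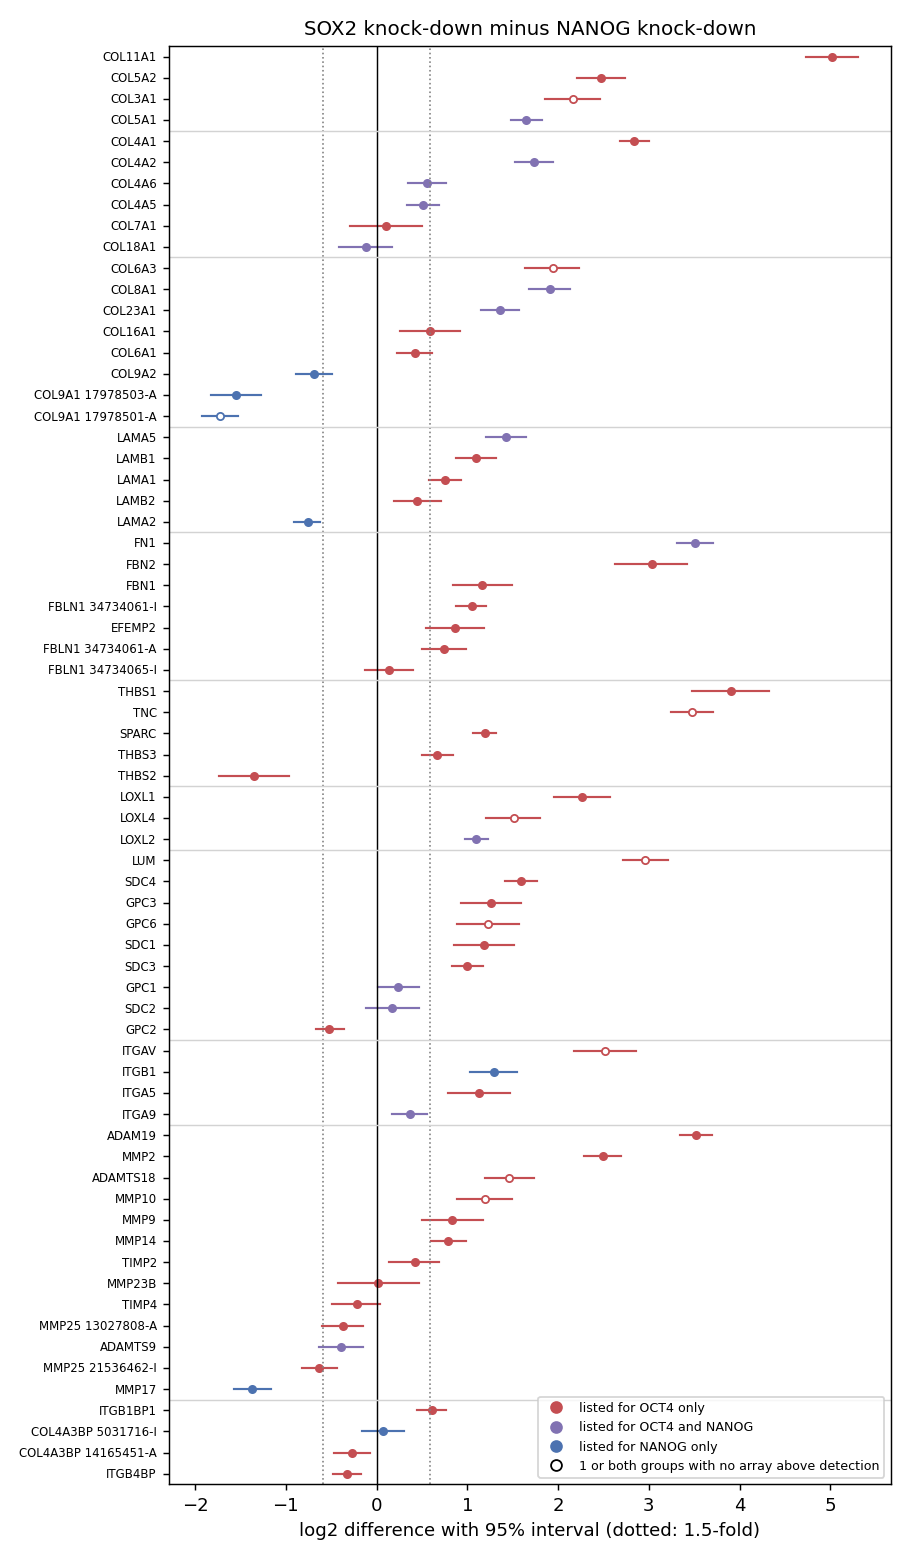
SOX2 minus NANOG knock-down log2 difference (horizontal axis) with its 95% interval from limma for each of the 68 probes, grouped by role; colours give the lists that chose a probe, open circles mark a group with no array above detection, and dotted lines mark 1.5-fold. Differences ran from -1.72 for a COL9A1 probe to 5.02 for COL11A1.

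The fibrillar collagens, which assemble into the banded fibres of connective tissue, were higher after SOX2 than after NANOG knock-down in each of the 4 members. COL11A1, a chain that nucleates thin fibrils, measured 4.75, 5.13 and 5.34 in mock, 10.59, 10.6 and 10.57 after OCT4 knock-down, 5.72, 5.82 and 5.59 after NANOG knock-down and 10.73, 10.88 and 10.57 after SOX2 knock-down. The difference of 5.02 ± 0.13 (SE) had a limma adjusted p of 3.27e-11, and the probe was below detection in mock. COL5A2, a chain of the collagen that regulates fibril diameter, measured 6.22, 6.41 and 6.5 in mock, 9.3, 9.15 and 9.06 after OCT4 knock-down, 6.79, 6.68 and 6.48 after NANOG knock-down and 9.25, 9.25 and 8.87 after SOX2 knock-down. SOX2 and NANOG knock-down arrays did not overlap, with a difference of 2.47 ± 0.12 (SE) (adjusted p = 6.74e-09). COL3A1, the collagen of extensible tissues, measured 4.48, 4.71 and 4.51 in mock, 7.32, 6.86 and 7.03 after OCT4 knock-down, 4.62, 5.06 and 4.91 after NANOG knock-down and 7.1, 7.13 and 6.84 after SOX2 knock-down. It was below detection on every mock and NANOG knock-down array, which makes SOX2 knock-down at least 3.21-fold higher than NANOG knock-down. COL5A1, also listed for NANOG and therefore not tested, differed by 1.65.

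Basement membrane and anchoring collagens include both head-to-head pairs. COL4A1 measured 8.33, 8.47 and 8.5 in mock, 11.45, 11.58 and 11.47 after OCT4 knock-down, 8.84, 8.89 and 8.91 after NANOG knock-down and 11.7, 11.82 and 11.64 after SOX2 knock-down. It differed by 2.84 ± 0.07 (SE) between SOX2 and NANOG knock-down (adjusted p = 3.27e-11), with no overlap. COL4A2, its partner chain in the common collagen IV molecule, measured 7.62, 7.4 and 7.38 in mock, 9.92, 10.11 and 10 after OCT4 knock-down, 8.39, 8.65 and 8.38 after NANOG knock-down and 10.19, 10.18 and 10.24 after SOX2 knock-down. It was higher on every NANOG knock-down array than on any mock array and higher again after SOX2 knock-down; it was also listed for NANOG, and its difference of 1.73 carries no test. COL4A6 measured 6.29, 6.26 and 6.02 in mock, 7.92, 7.67 and 7.82 after OCT4 knock-down, 7.06, 7.09 and 6.9 after NANOG knock-down and 7.52, 7.63 and 7.58 after SOX2 knock-down. The COL4A6 difference was 0.56 and that of its neighbour COL4A5 was 0.51, both under 1.5-fold and both described without a test; each passed it under at least 1 alternative, COL4A6 reaching 0.67 with 75th percentile scaling and COL4A5 0.6 without NANOG knock-down replicate 3. COL18A1, the precursor of endostatin, differed in sign from most of the role and measured 9.24, 9.18 and 8.82 in mock, 10.05, 10.34 and 10.17 after OCT4 knock-down, 10.35, 10.72 and 10.48 after NANOG knock-down and 10.36, 10.27 and 10.57 after SOX2 knock-down. Its SOX2 and NANOG knock-down arrays overlapped, as did those of COL7A1, the anchoring fibril collagen, which differed by 0.10 and changed sign without NANOG knock-down replicate 1 or SOX2 knock-down replicate 2.

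The other collagens held members of both directions. COL6A3, a chain of microfibrillar collagen VI, measured 4.79, 4.77 and 4.86 in mock, 6.63, 6.53 and 6.57 after OCT4 knock-down, 4.7, 4.46 and 4.44 after NANOG knock-down and 6.54, 6.77 and 6.11 after SOX2 knock-down. It was below detection in mock and after NANOG knock-down and at least 2.19-fold higher after SOX2 knock-down. COL8A1, a short-chain network collagen, measured 4.78, 4.76 and 5.08 in mock, 7.61, 7.68 and 7.62 after OCT4 knock-down, 5.87, 6.14 and 5.84 after NANOG knock-down and 7.88, 7.76 and 7.93 after SOX2 knock-down. COL8A1 was below detection in mock, so its rise after NANOG knock-down is only a bound of at least 1.42-fold. Every SOX2 knock-down array exceeded every NANOG knock-down array. The SOX2 minus NANOG difference of 1.91 is untested because COL8A1 was listed for NANOG. COL9A1, a chain of a cartilage collagen, was measured by a pair of probes listed for NANOG alone. On GI_17978501-A it measured 5.83, 5.76 and 5.46 in mock, 5.17, 5.09 and 5.23 after OCT4 knock-down, 6.76, 6.78 and 6.69 after NANOG knock-down and 5.05, 4.98 and 5.04 after SOX2 knock-down. On GI_17978503-A it measured 6.54, 6.06 and 6.34 in mock, 5.33, 5.55 and 5.8 after OCT4 knock-down, 7.19, 7.25 and 7.25 after NANOG knock-down and 5.74, 5.68 and 5.63 after SOX2 knock-down. The first probe was above detection on 1 of 3 OCT4 and on none of the SOX2 knock-down arrays. Both probes were highest on the NANOG knock-down arrays, above mock, and lower than mock after OCT4 and SOX2 knock-down. COL9A2, its partner chain, measured 6.73, 6.5 and 6.52 in mock, 6.7, 6.96 and 6.83 after OCT4 knock-down, 7.31, 7.51 and 7.41 after NANOG knock-down and 6.68, 6.82 and 6.66 after SOX2 knock-down. The NANOG knock-down arrays were above those of all other groups for COL9A2. COL23A1 differed by 1.36, and COL6A1 by 0.42 without a call. COL16A1 differed by 0.59, barely past 1.5-fold, and lost its call in 6 of the 12 fits that left out an array, where it was at 0.5 to 0.58.

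Laminins are cross-shaped trimers of alpha, beta and gamma chains. LAMA5, the alpha chain of laminins on which pluripotent cells attach, measured 10.21, 9.99 and 9.86 in mock, 12.12, 12.29 and 12.14 after OCT4 knock-down, 10.66, 10.9 and 10.72 after NANOG knock-down and 12.1, 12.26 and 12.23 after SOX2 knock-down. It stood above mock in all knock-downs and differed by 1.43 between SOX2 and NANOG knock-down, untested because it was listed for NANOG. LAMB1 measured 9.3, 9.39 and 9.42 in mock, 10.22, 9.99 and 10.02 after OCT4 knock-down, 9.08, 8.91 and 9 after NANOG knock-down and 10.09, 10.29 and 9.89 after SOX2 knock-down. NANOG knock-down arrays lay below mock and SOX2 knock-down arrays above it, with a tested difference of 1.09 ± 0.1 (SE) (adjusted p = 2.42e-06). LAMA2, the alpha chain of muscle basement membrane, went the other way and measured 7.39, 7.36 and 7.49 in mock, 7.33, 7.29 and 7.38 after OCT4 knock-down, 8.1, 8.16 and 8.03 after NANOG knock-down and 7.34, 7.36 and 7.31 after SOX2 knock-down. It was raised on the NANOG knock-down arrays alone among the groups, the contrast by which it was listed. LAMA1 differed by 0.75 and was called, and LAMB2 by 0.45 and was not.

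Fibronectin is the main integrin ligand of provisional matrix, and fibrillins and fibulins build elastic fibres. FN1 measured 7.94, 7.93 and 8.18 in mock, 10.73, 10.75 and 10.74 after OCT4 knock-down, 7.39, 7.28 and 7.15 after NANOG knock-down and 10.78, 10.91 and 10.66 after SOX2 knock-down. All NANOG knock-down arrays lay below all mock arrays, and all OCT4 and SOX2 knock-down arrays above them; the difference of 3.51 between SOX2 and NANOG knock-down is a description, since NANOG lists held FN1. FBN2, the fibrillin of developing tissue, measured 5.5, 5.36 and 4.93 in mock, 8.51, 8.53 and 8.55 after OCT4 knock-down, 4.95, 5.51 and 5.58 after NANOG knock-down and 8.44, 8.58 and 8.1 after SOX2 knock-down. It was below detection in mock and above it on 2 of 3 NANOG knock-down arrays, and differed by 3.03 ± 0.18 (SE). FBN1, the fibrillin altered in Marfan syndrome, measured 6.07, 5.58 and 5.71 in mock, 7, 7.15 and 6.88 after OCT4 knock-down, 6.01, 5.47 and 5.9 after NANOG knock-down and 6.87, 7.1 and 6.9 after SOX2 knock-down. NANOG knock-down and mock arrays overlapped, and SOX2 knock-down was higher by 1.16 ± 0.15 (SE) (adjusted p = 4.14e-05). Of the 3 FBLN1 probes, those for transcript variant C differed by 1.05 and 0.74 and were called, and that for variant D differed by 0.14 and was not. EFEMP2 differed by 0.86 and was called, a call that ended with the methods' t-test at its own threshold, where the difference was still 0.86.

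Matricellular proteins are secreted modulators of adhesion rather than structural fibres. THBS1 measured 4.93, 5.79 and 5.23 in mock, 9.08, 8.97 and 8.9 after OCT4 knock-down, 5.24, 4.92 and 5.45 after NANOG knock-down and 9.18, 9.26 and 8.88 after SOX2 knock-down. It was above detection on 1 of 3 arrays in mock and after NANOG knock-down, and on all arrays after OCT4 and SOX2 knock-down. The difference between SOX2 and NANOG knock-down was 3.9 ± 0.19 (SE). TNC, an adhesion-modulating glycoprotein of embryonic tissue, measured 7.65, 7.63 and 7.66 in mock, 8.36, 8.47 and 8.19 after OCT4 knock-down, 5.23, 4.91 and 4.75 after NANOG knock-down and 8.44, 8.46 and 8.41 after SOX2 knock-down. It was below detection on every NANOG knock-down array while detected on all others, so SOX2 knock-down was at least 8.54-fold higher, given without a p because TNC may be in the part of the lower NANOG list not used. THBS2 measured 8.28, 8.31 and 8.42 in mock, 5.58, 5.49 and 5.42 after OCT4 knock-down, 6.58, 6.7 and 6.2 after NANOG knock-down and 5.62, 4.96 and 4.87 after SOX2 knock-down. It was lower than mock in every knock-down, with OCT4 and SOX2 knock-down arrays overlapping; after SOX2 knock-down 1 of 3 arrays was above detection, and the probe was lower than after NANOG knock-down with a difference of -1.35, given without a p for the same reason as TNC. SPARC, a collagen-binding protein, differed by 1.19 and THBS3 by 0.67, and both were called higher.

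All lysyl oxidases among the members were higher after SOX2 knock-down. LOXL1, needed for elastic fibre cross-linking, measured 5.9, 5.88 and 5.97 in mock, 8.15, 8.53 and 8.21 after OCT4 knock-down, 6.02, 6.21 and 5.67 after NANOG knock-down and 8.06, 8.18 and 8.45 after SOX2 knock-down. NANOG knock-down and mock arrays overlapped, while the SOX2 knock-down arrays were higher by 2.26 ± 0.14 (SE) (adjusted p = 7.02e-08). LOXL4 measured 4.6, 4.94 and 4.7 in mock, 6.05, 6.19 and 5.94 after OCT4 knock-down, 4.62, 5.04 and 4.53 after NANOG knock-down and 6.15, 6.4 and 6.17 after SOX2 knock-down. It was below detection in mock and after NANOG knock-down, and at least 1.86-fold higher after SOX2 knock-down. LOXL2 measured 9.28, 9.34 and 9.33 in mock, 11.18, 11.07 and 11.14 after OCT4 knock-down, 10.05, 10.04 and 10.05 after NANOG knock-down and 11.2, 11.15 and 11.1 after SOX2 knock-down. Its arrays were ordered mock, NANOG, SOX2 knock-down without overlap, and the SOX2 minus NANOG difference of 1.10 is untested because LOXL2 was listed for NANOG.

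Proteoglycans carry sulphated sugar chains on a core protein. LUM, the small leucine-rich proteoglycan lumican, measured 5.06, 4.88 and 4.65 in mock, 8.22, 7.97 and 8.24 after OCT4 knock-down, 4.8, 4.96 and 4.82 after NANOG knock-down and 7.98, 7.77 and 7.72 after SOX2 knock-down. Below detection in mock and after NANOG knock-down, it was at least 5.58-fold higher after SOX2 knock-down. SDC4, a syndecan of focal adhesions, measured 7.16, 7.16 and 7.34 in mock, 8.27, 8.25 and 8.25 after OCT4 knock-down, 6.79, 6.89 and 6.82 after NANOG knock-down and 8.42, 8.28 and 8.58 after SOX2 knock-down. NANOG knock-down arrays lay below mock, and SOX2 knock-down exceeded NANOG knock-down by 1.59 ± 0.08 (SE) (adjusted p = 1.11e-08). GPC3, a membrane-anchored glypican of embryonic tissue, measured 7.84, 8.01 and 7.74 in mock, 10.53, 10.37 and 10.42 after OCT4 knock-down, 9.22, 8.92 and 8.49 after NANOG knock-down and 10.14, 10 and 10.26 after SOX2 knock-down. Its arrays were ordered mock, NANOG, SOX2 knock-down without overlap, with a difference of 1.26 ± 0.15 (SE) (adjusted p = 2.19e-05). GPC2, a glypican of the developing nervous system, had the opposite sign and measured 6.96, 6.91 and 6.78 in mock, 6.08, 5.92 and 6 after OCT4 knock-down, 6.72, 6.61 and 6.69 after NANOG knock-down and 6.16, 6.15 and 6.17 after SOX2 knock-down. The difference of -0.52 ± 0.07 (SE) had an adjusted p of 7.06e-05 but was under 1.5-fold and was not called. SDC1, SDC3 and GPC6 were called higher, and SDC2 and GPC1, both listed for NANOG, differed by 0.17 and 0.24.

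Integrin subunits were few among the members. ITGAV, the alpha subunit of vitronectin receptors, measured 4.58, 5.32 and 4.78 in mock, 7.08, 7.21 and 6.95 after OCT4 knock-down, 4.76, 4.57 and 4.79 after NANOG knock-down and 7.12, 7.32 and 7.23 after SOX2 knock-down. Below detection in mock and after NANOG knock-down, it was at least 3.69-fold higher after SOX2 knock-down. ITGB1, the beta subunit shared by most matrix-binding integrins, measured 8.66, 8.96 and 8.87 in mock, 9.15, 9.05 and 8.98 after OCT4 knock-down, 7.77, 7.57 and 8.05 after NANOG knock-down and 9.12, 9.18 and 8.96 after SOX2 knock-down. The NANOG knock-down arrays were below all others, and the probe was listed for NANOG alone, so the difference of 1.29 is a description. ITGA5, the alpha subunit of the fibronectin receptor, measured 5.8, 5.46 and 5.43 in mock, 6.41, 6.37 and 6.46 after OCT4 knock-down, 5.68, 5.71 and 5.1 after NANOG knock-down and 6.44, 6.64 and 6.78 after SOX2 knock-down. It was above detection on 2 of 3 NANOG knock-down arrays and differed by 1.13 ± 0.16 (SE) (adjusted p = 7.46e-05). ITGA9 was lower than mock in all knock-downs, by -1.05 after OCT4, -1.31 after NANOG and -0.95 after SOX2 knock-down.

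Proteases and their inhibitors were mixed. ADAM19, a membrane metalloproteinase, measured 6.7, 6.76 and 6.87 in mock, 9.83, 9.81 and 9.72 after OCT4 knock-down, 6.45, 6.23 and 6.5 after NANOG knock-down and 9.88, 9.98 and 9.87 after SOX2 knock-down. It was slightly lower than mock after NANOG knock-down and differed by 3.52 ± 0.08 (SE) between SOX2 and NANOG knock-down (adjusted p = 1.44e-11). MMP2, a gelatinase, measured 5.72, 5.64 and 5.45 in mock, 8.16, 8.42 and 8.31 after OCT4 knock-down, 5.74, 5.71 and 5.76 after NANOG knock-down and 8.2, 8.11 and 8.36 after SOX2 knock-down. NANOG knock-down and mock arrays overlapped, and SOX2 knock-down was higher than NANOG knock-down by 2.49 ± 0.09 (SE) (adjusted p = 6.33e-10). ADAMTS18 measured 4.38, 4.25 and 4.34 in mock, 6.2, 5.83 and 5.73 after OCT4 knock-down, 4.34, 4.38 and 4.46 after NANOG knock-down and 5.95, 6 and 5.61 after SOX2 knock-down. Below detection in mock and after NANOG knock-down, it was at least 1.43-fold higher after SOX2 knock-down, a bound under the 1.5-fold that its fitted value passed.

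Members of this role with the opposite sign were MMP17, MMP25, TIMP4 and ADAMTS9. MMP17, a membrane-anchored metalloproteinase listed for NANOG alone, measured 9.84, 9.76 and 9.58 in mock, 9.24, 9.42 and 9.29 after OCT4 knock-down, 10.58, 10.8 and 10.78 after NANOG knock-down and 9.28, 9.28 and 9.49 after SOX2 knock-down. NANOG knock-down arrays were the highest and OCT4 and SOX2 knock-down arrays lay below mock. MMP25, another membrane-anchored metalloproteinase, measured 8.19, 8 and 8.08 in mock, 6.43, 6.5 and 6.63 after OCT4 knock-down, 6.96, 7.2 and 6.96 after NANOG knock-down and 6.37, 6.42 and 6.44 after SOX2 knock-down on GI_21536462-I. It measured 6.65, 6.75 and 6.64 in mock, 5.43, 5.69 and 5.68 after OCT4 knock-down, 5.93, 5.98 and 5.71 after NANOG knock-down and 5.33, 5.61 and 5.57 after SOX2 knock-down on GI_13027808-A. Both probes were lower than mock in every knock-down, and the first was lower after SOX2 than after NANOG knock-down, by -0.63. It is given without a p, since the lower NANOG list may name it in the part not used, and its call ended with cyclic loess (-0.54), with 75th percentile scaling (-0.50) and without NANOG knock-down replicate 2 (-0.55). TIMP4, a metalloproteinase inhibitor, measured 8.9, 8.69 and 8.68 in mock, 7.45, 7.7 and 7.42 after OCT4 knock-down, 7.98, 7.95 and 7.61 after NANOG knock-down and 7.51, 7.57 and 7.79 after SOX2 knock-down. It was lower than mock in every knock-down, and its SOX2 and NANOG knock-down arrays overlapped. ADAMTS9, which cleaves large proteoglycans, measured 5.97, 6.17 and 5.65 in mock, 6.73, 6.81 and 6.8 after OCT4 knock-down, 7.04, 7.04 and 6.91 after NANOG knock-down and 6.57, 6.7 and 6.55 after SOX2 knock-down. All knock-downs were above mock and NANOG knock-down was the highest. MMP9, MMP10 and MMP14 were called higher after SOX2 than after NANOG knock-down, and TIMP2 and MMP23B were not called. MMP9 was above detection on 1 of 3 NANOG knock-down arrays. Its call ended with the methods' t-test, both at its own threshold and after Benjamini-Hochberg, where the difference was still 0.83.

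A few members carry matching symbols without being matrix or integrin genes. ITGB1BP1, a cytoplasmic adaptor of integrin beta 1, measured 9.09, 9.22 and 9.27 in mock, 9.8, 9.85 and 9.83 after OCT4 knock-down, 9.15, 9.23 and 9.31 after NANOG knock-down and 9.83, 9.78 and 9.9 after SOX2 knock-down. It was called higher after SOX2 than after NANOG knock-down, by 0.61 ± 0.07 (SE) (adjusted p = 2.09e-05), a call that ended without NANOG knock-down replicate 1 (0.56) or SOX2 knock-down replicate 3 (0.57). ITGB4BP, now known as the translation factor EIF6, measured 11.48, 11.42 and 11.44 in mock, 10.87, 11 and 11.03 after OCT4 knock-down, 11.37, 11.47 and 11.4 after NANOG knock-down and 11.12, 11 and 11.15 after SOX2 knock-down. COL4A3BP, the ceramide transfer protein, measured 9.57, 9.6 and 9.85 in mock, 9.14, 9.01 and 9.12 after OCT4 knock-down, 9.58, 9.43 and 9.33 after NANOG knock-down and 9.22, 9.22 and 9.1 after SOX2 knock-down on GI_14165451-A. Neither was called, with differences of -0.32 and -0.27, and the other COL4A3BP probe differed by 0.07.

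In 9 of the 34 probes called higher, no NANOG knock-down array was above detection, so their fitted differences give only a bound; in 1 of these, ADAMTS18, the bound was under 1.5-fold.

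Of 34 genes fixed as a related list for matrix processing and adhesion, 16 could be named, each through the study's own lists and so also selected. All 16 were called higher after SOX2 than after NANOG knock-down (11.8% of all probes tested), PTK2 by 0.59, barely past 1.5-fold. They included differences of 3.46 for TGFBI, an integrin-binding matrix protein, and 2.17 for CTGF, a matricellular protein. CYR61, another, was below detection on every mock and NANOG knock-down array and at least 3.83-fold higher after SOX2 than after NANOG knock-down.

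OCT4 and SOX2 knock-down gave nearly the same matrix values. No member was called between them, and neither was any of the 12374 probes tested (0%) by limma at an adjusted p under 0.05 and 1.5-fold. By fold alone 65 probes passed 1.5-fold, with a largest log2 difference of 6.57, and other normalisations gave calls, 32 higher and 4 lower with cyclic loess and 20 and 31 with 75th percentile scaling. At an unadjusted p under 0.05 limma gave 1210 probes, 8 of them members, and the methods' t-test at its own threshold of P under 0.01 gave 18 probes higher and 2 lower. The OCT4 arrays helped choose the members, which bears on this comparison. The median absolute log2 difference over the members was 0.11, beside 0.08 over all probes tested, and the largest was 0.48, for SDC2. For 65 of the 68 members the 95% interval of the difference lay within 1.5-fold in either direction. The intervals of SDC2 (0.18 to 0.77), GPC3 (-0.02 to 0.64) and THBS2 (-0.04 to 0.73) reached past it. A missed threshold does not show that the knock-downs act alike.

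**Figure D4:**
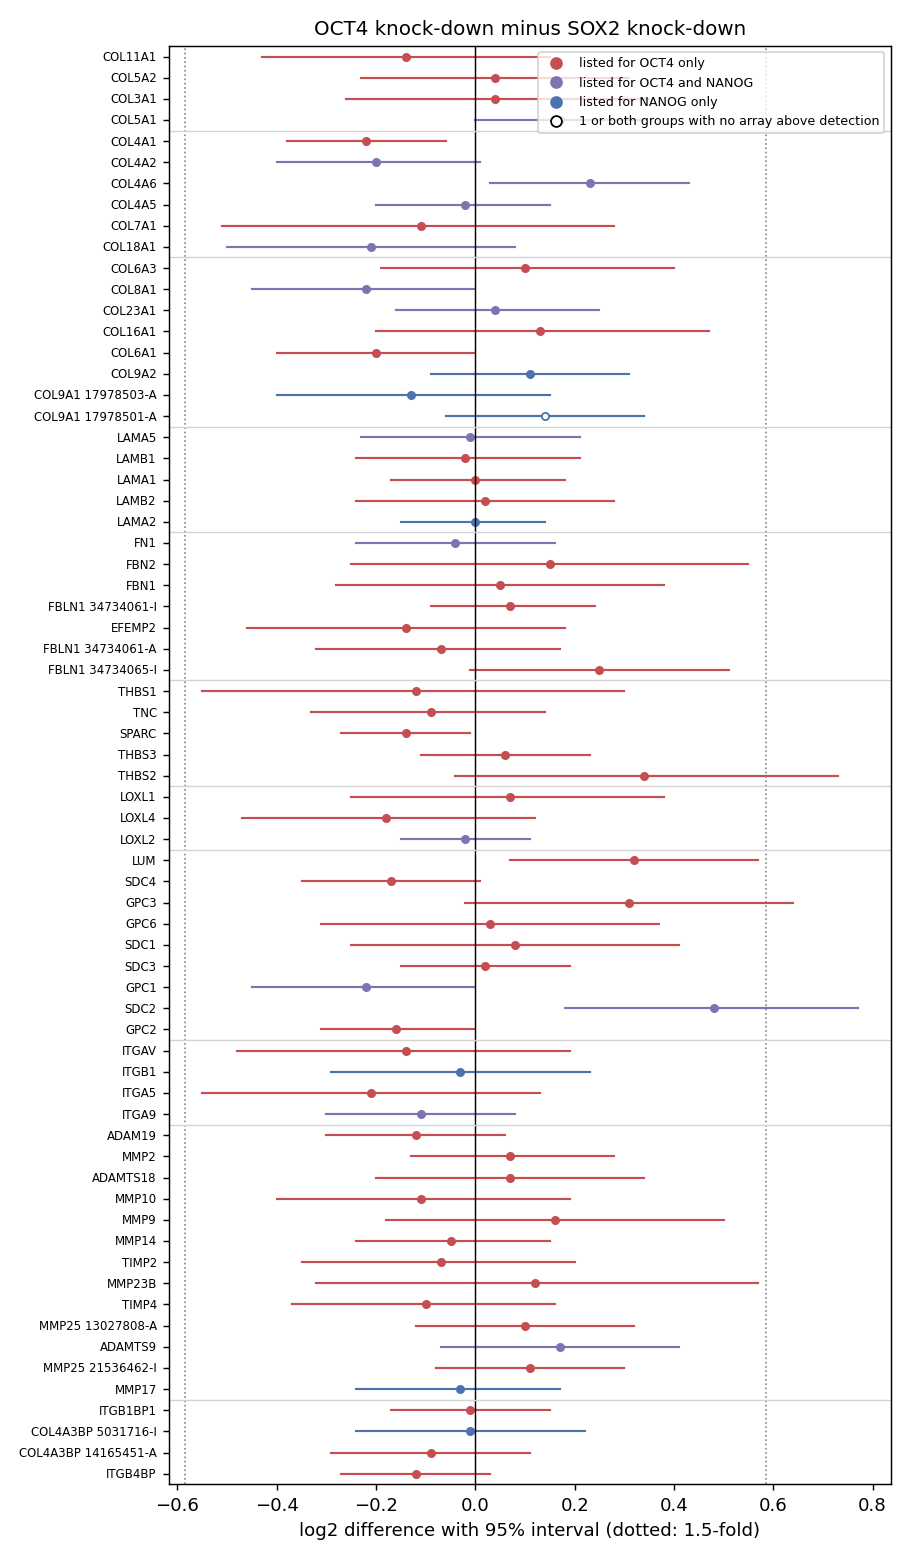
OCT4 minus SOX2 knock-down log2 difference (horizontal axis) with its 95% interval from limma for each of the 68 probes, in the row order and colours of the plot of SOX2 minus NANOG differences; dotted lines mark 1.5-fold. SDC2 has the largest difference, 0.48, and only SDC2, GPC3 and THBS2 have intervals that reach past 1.5-fold.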

How the data were processed

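RNA was measured on Illumina BeadChips in 4 groups of 3 arrays. The deposited array files hold the raw bead intensity of each probe, not background-subtracted, and a detection value as a fraction from 0 to 1, both written by the authors' BeadStudio 1.0. The series value table holds the authors' mean processed intensity per group, background-subtracted and normalised by rank invariance per the study's methods; its columns tracked the mean array signal (r = 1.000), with column medians of 167 for mock, 146 for OCT4, 152 for NANOG and 167 for SOX2 knock-down, while its centring is unstated.

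Here the 4 control bead types were left out. Background was corrected in limma 3.58.1 (R 4.3.3) by the nec function with an offset of 16, followed by quantile normalisation and log2. Probes above a detection value of 0.99 on all 3 arrays of at least 1 group, 12374 of 47289, entered 1 limma fit (lmFit and eBayes) over all 12 arrays without covariates, with Benjamini-Hochberg adjustment over all probes tested. The fit was tested on simulated data. Calls required an adjusted p under 0.05 and at least 1.5-fold. Array medians of raw signal ran from 97.5 to 124 and the background means from 93.1 to 119, and the number of arrays limits the precision.

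Where no array of a group was above detection, the brighter group's mean was set against the dimmer group's mean of, per array, the higher of the lowest detected signal and the probe's own, and given as "at least". Probes were named only by the study's lists, since no probe to gene table was used. Of the 68 members, 65 matched a current RefSeq gene by accession on GRCh38.p14. Values on every array were given for the 3 probes of each role with the largest absolute SOX2 minus NANOG difference and for members whose sign differed from most of their role. Members and lists were chosen with earlier results of these data known. The labels and the methods differ in seeding density and day of harvest, and the labels were followed. Alternatives were other normalisations, floor, filter, fits and the methods' t-test, and leaving out each array. In the related list for matrix processing and adhesion, 1 gene is counted but its values are not reported here.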

Additional observations from a re-analysis of the deposited data

Results flagged for a closer look

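A few members moved in opposite directions from mock in the SOX2 and NANOG knock-downs, being called on both sides of the mock arrays. FN1 differed by 3.51 on the log2 scale between SOX2 and NANOG knock-down, with -0.75 from mock after NANOG knock-down and 2.76 after SOX2 knock-down. TNC was below detection after NANOG knock-down, so its fitted difference of 3.47 is a bound of at least 8.54-fold and its fall from mock one of at least 4.93-fold; after SOX2 knock-down it differed from mock by 0.79. COL9A1 had the reverse pattern on both of its probes, with SOX2 minus NANOG differences of -1.72 and -1.55, of which the first is against arrays below detection after SOX2 knock-down and gives only a bound of at least 2.68-fold. That probe was at least 1.28-fold lower than mock after SOX2 knock-down, a bound under the 1.5-fold that its fitted value passed. FN1 and COL9A1 were chosen in part by their NANOG contrast, and TNC may be in the part of the lower NANOG list not used, so no p is given, and the mock arrays are shared by both contrasts.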

How the results depend on the processing

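The alternatives were run for the counts and for the SOX2 minus NANOG difference of each of the 68 probes. Of these single-probe values, 1395 kept their side of the threshold or stayed within 1 SD, 14 untested ones moved by more, 14 lost a call and 1 gained one, and 4 tested ones changed sign: without 1 array at a time, COL7A1 (0.1) ran from -0.03 to 0.21 and MMP23B (0.02) from -0.17 to 0.17, each below 0 in 2 fits. An untested COL4A3BP probe (0.07) was at -0.06 in 1 such fit, within 1 SD. Of the 36 calls among the 47 tested probes, all 36 were kept without a filter on dim probes, with only the groups compared, with a lower detection limit of 0.95 (added after seeing the data) and with the replicate block; 35 were kept with cyclic loess and 35 with 75th percentile scaling, which lost MMP25, and a floor of 20 kept all 36 and added GPC2 (-0.63). The methods' t-test kept 34 at its own threshold, losing EFEMP2 and MMP9, and 35 after Benjamini-Hochberg. Replicate numbers were not treated as pairs in the main fit. Deviations from the group mean on same-numbered SOX2 and NANOG knock-down arrays correlated at 0.136, -0.0482 and -0.0434. For OCT4 and SOX2 knock-down arrays these correlations were 0.208, -0.261 and 0.0726. With 3 arrays per group they cannot exclude a shared batch. The replicate block left 34 higher and 2 lower.

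Without 1 array at a time, 32 to 34 were called higher and 1 to 2 lower. The count lower was 1 with cyclic loess and 1 with 75th percentile scaling. Restricted to the 27 probes whose place in the lower NANOG list is known (chosen after seeing the data), it was 20 higher and 0 lower, by the construction of fewer probes, and without the 5 probes that the rest of that list may name (chosen after seeing the data) 33 higher and 0 lower. The matrix processing list kept 15 or 16 called higher. Members lower than mock after SOX2 knock-down numbered 5 by fold in the authors' table, against 9. Of the others, THBS2 and COL9A1 on GI_17978501-A had no value there and could not count. COL9A1 on GI_17978503-A (-0.58) and COL4A3BP on GI_5031716-I (-0.44) fell short of 1.5-fold. Members higher than mock by fold in that table numbered 39 after OCT4 and 39 after SOX2 knock-down, against 51 and 52. Of the 68 members, 54 had a mock value there. With the methods' t-test, members higher than mock after NANOG knock-down numbered 17 at its threshold and 16 after Benjamini-Hochberg, against 22. Over all probes, OCT4 against SOX2 knock-down gave 0 calls, but 32 higher and 4 lower with cyclic loess, 20 and 31 with 75th percentile scaling, 6 higher with a floor of 20, 2 higher with only the groups compared, 18 and 2 with the methods' t-test at its threshold, 1 higher after Benjamini-Hochberg, and 0 to 4 higher and 0 to 1 lower without 1 array; the cause was not tested. No BeadChip or scan block was run, since the files used name neither. Signal over background limits the dim members, which have bounds only where no array of a group was above detection.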
